A study of Mus musculus with 6 samples.

Results

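The nuclear genome encodes most subunits of the 5 enzyme complexes of oxidative phosphorylation, and 78 such genes were present among the 27734 genes measured in mouse rib chondrocytes with and without Jab1. They were taken by symbol, without regard to any measured value. Complex I contributed 36 genes (Ndufa, Ndufb, Ndufc, Ndufs and Ndufv symbols that end in a number), complex II 4 (Sdha to Sdhd), complex III 8 (symbols that begin with Uqcr), complex IV 15 (Cox4 to Cox8 symbols with subunit letters) and complex V 15 (Atp5a to Atp5o symbols). Symbols marked as pseudogenes were left out, which removed 2 copies of Uqcrh, and the rule does not reach Ndufab1, Cyc1, Cox4i1, Cox4i2 and a few further subunits, which are described separately. The genes lie on 18 chromosomes, 3 of them on the X chromosome, and all are annotated as protein coding.

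The mutant libraries (Mut, n = 3) came from mice whose floxed Jab1 is deleted by Cre driven from the Col2a1 promoter (Col2a1-Cre; Jab1flox/flox), and the comparison libraries (WT, n = 3) from wild-type mice, all at E18.5. Jab1, encoded by Cops5, is the catalytic subunit of the COP9 signalosome, which removes the ubiquitin-like protein Nedd8 from cullin ligases. Chondrocytes are the cells that make cartilage. They were freed from rib tissue by enzymatic digestion and lysed without culture. Any cell of the digested tissue in which Cre did not act keeps Jab1 and is also in the RNA. Expression is given as FPKM, the number of fragments scaled to transcript length and to the mapped fragments of the library, and libraries are named by group and column number, 0 to 2.

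Oxidative phosphorylation passes electrons from NADH through complex I, or from succinate through complex II, to ubiquinone, then through complex III and cytochrome c to complex IV, which reduces oxygen. Complexes I, III and IV pump protons across the inner mitochondrial membrane, and complex V, the ATP synthase, uses the gradient to make ATP. Cartilage has no blood vessels and chondrocytes are known to draw heavily on glycolysis, and many nuclear genes of the system are known to be controlled by the factors NRF1, GABP of the ETS family and YY1.

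The sequence upstream of 4 member genes is shown because the only X-linked subunit that changed, Ndufa1, can be set beside the other 2 X-linked subunits, Ndufb11 and Cox7b, and beside Cox6a1, the common partner isoform of the other subunit that changed. Each is the 250 bases before the gene start in RefSeq (GRCm38.p6), written 5′ to 3′ on the gene's strand. Capitals mark matches to the motifs of NRF1 (GCGCA, 1 free base, then GCGC), ETS factors (CCGGAAG), YY1 (AANATGGCG) and CCAAT boxes (CCAAT), searched on both strands.
Ndufa1, chrX:37191239-37191488, minus strand: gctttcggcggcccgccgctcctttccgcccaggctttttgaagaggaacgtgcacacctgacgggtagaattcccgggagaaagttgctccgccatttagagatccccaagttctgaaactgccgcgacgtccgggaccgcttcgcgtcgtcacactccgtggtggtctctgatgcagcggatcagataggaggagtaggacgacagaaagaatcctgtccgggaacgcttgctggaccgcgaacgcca
Ndufb11, chrX:20617620-20617869, minus strand: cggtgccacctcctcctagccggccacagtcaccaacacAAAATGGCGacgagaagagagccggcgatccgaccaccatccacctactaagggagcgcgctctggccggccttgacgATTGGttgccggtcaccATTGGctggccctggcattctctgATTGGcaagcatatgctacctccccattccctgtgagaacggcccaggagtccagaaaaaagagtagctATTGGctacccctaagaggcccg
Cox7b, chrX:106015450-106015699, plus strand: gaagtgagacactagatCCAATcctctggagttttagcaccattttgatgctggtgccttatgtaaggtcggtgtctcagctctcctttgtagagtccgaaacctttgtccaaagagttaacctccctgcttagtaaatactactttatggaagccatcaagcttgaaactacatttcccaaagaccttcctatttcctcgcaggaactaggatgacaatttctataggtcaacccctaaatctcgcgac
Cox6a1, chr5:115348959-115349208, minus strand: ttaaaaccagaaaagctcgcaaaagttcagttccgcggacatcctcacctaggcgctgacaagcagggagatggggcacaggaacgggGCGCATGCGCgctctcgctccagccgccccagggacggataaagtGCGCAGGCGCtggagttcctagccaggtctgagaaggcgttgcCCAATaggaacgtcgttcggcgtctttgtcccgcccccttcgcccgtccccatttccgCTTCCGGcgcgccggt

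No match to these 4 motifs lay in the Ndufa1 sequence, which says only that these letters are not in the window. Ndufb11 held 1 YY1 match at base -211 and 4 CCAAT matches, Cox7b 1 CCAAT match, and Cox6a1 had 2 NRF1 matches at -162 and -117, a CCAAT match at -74 and an ETS match at -16, counted from the gene start. Windows of 300 bases (250 before and 50 after the start) were found for 67 of the 78 genes, 72 windows in all. The NRF1 motif was in 25% of these windows, against 10.5% of 10971 windows of protein-coding genes expressed in these cells. The ETS motif was in 22.2% against 17.9%, the YY1 motif in 13.9% against 5.35% and CCAAT in 41.7% against 37.9%. At least 1 of the NRF1, ETS and YY1 motifs was in 52.8% of the subunit windows, against 29.8% of the windows of expressed genes and 14.2% of all 32851 windows. The median GC content was 57.3% and 61.3% in the subunit windows and those of expressed genes. Matches of different motifs did not overlap in any subunit window. These shares are descriptions of sequence, and a match is not a shown binding site.

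The targeted gene went with the labels. Cops5 measured 17.4 ± 0.534 FPKM in Mut and 40.7 ± 1.39 FPKM in WT libraries (SD, n = 3 each; log2 fold change -1.18, SE 0.060, limma adjusted p = 6.5e-04). This is a value for the gene as a whole, and which exons are floxed is not given in the sources used here. Column totals ran from 571180 to 631534 FPKM. Depth in reads is unknown, so no counting intervals are given. Of the 7 chondrocyte markers in the table, which do not include Col2a1 (not analysed here), all were expressed. They summed to 7473, 4995 and 4600 FPKM in Mut and 7067, 7822 and 6988 FPKM in WT libraries. The groups overlapped through Mut 0 only, and Mut 1 and Mut 2 lay below all WT libraries. The cartilage matrix gene Comp fell (log2 fold change -0.66, limma adjusted p = 0.024), the other 6 did not pass, and the median log2 fold change of the 7 was -0.47. Erythroid markers summed to 14.9 to 49.4 FPKM in Mut and 196 to 221 FPKM in WT libraries, and macrophage and granulocyte markers to 17.4 to 43.0 FPKM in Mut and 97.6 to 254 FPKM in WT. All 5 tested erythroid markers fell, and of 6 tested macrophage and granulocyte markers 2 fell and 1 had a positive fold change. Fibroblast markers summed to 728 to 1056 FPKM in Mut and 1293 to 1375 FPKM in WT libraries, and endothelial markers to 1.24 to 9.41 FPKM in Mut and 2.42 to 4.09 FPKM in WT. Of 5 tested fibroblast markers 2 fell, 2 had positive fold changes and 1 had all Mut values above all WT values. None of 3 tested endothelial markers passed. Of all genes tested 2.59% fell. The sum of 4 Y-linked genes was 14.6 to 82.8 FPKM in Mut and 0.028 to 0.639 FPKM in WT libraries, so genotype and the sex of the embryos cannot be told apart. The part of these differences in the results was not tested.

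Subunit transcripts were abundant in both genotypes. Genes entered the test if they averaged 1 FPKM or more across libraries, as 74 of the 78 did. A mean of 10 FPKM was reached by 68 genes and a mean of 100 FPKM by 23. The highest was Atp5b, the catalytic beta subunit of complex V, with 429, 419 and 443 FPKM in Mut and 429, 408 and 420 FPKM in WT libraries. It was 271 times the mean of the lowest tested gene, Cox7a1. The median mean level was 55.2 FPKM for complex I, 59.9 for II, 108 for III, 59.2 for IV and 130.1 for V among tested members. The order of the genes was close to the same in every library: across the 74 genes, Pearson correlations of log2(FPKM + 1) between libraries were 0.972 to 0.994, as a description of genes that share length and library effects.

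**Figure D1:**
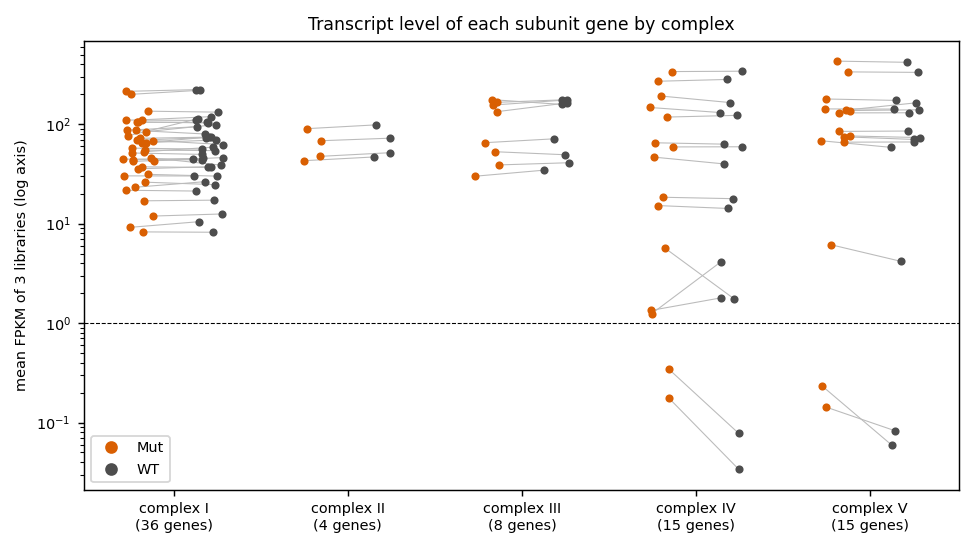
Mean FPKM of each of the 78 subunit genes (log axis) by complex, in the 3 Mut libraries (orange, left) and the 3 WT libraries (grey, right), with a line joining the 2 means of a gene. The dashed line is 1 FPKM, and 4 genes of complexes IV and V lie below it in both groups, while most lines are close to level.

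Across the set, 2 of the 74 tested genes changed between genotypes, both lower in Mut: Ndufa1 of complex I and Cox6a2 of complex IV. None rose and 72 did not pass (limma, adjusted p under 0.05 over all 14012 genes tested). That is 2.70% of the set, against 6.07% of all genes tested (2.59% lower and 3.48% higher). At an unadjusted limma p under 0.05 there were 4 subunit genes, 2 higher and 2 lower, or 5.41%, against 24.7% of all genes tested. The 3 values of each group did not overlap in 7 subunit genes (9.46%), 3 above and 4 below WT, against 32.2% of all genes tested (16.3% above and 15.9% below). The labels do not say which libraries came from separate embryos, so the spread behind all p-values may be technical.

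Most subunits had narrow intervals around no change. The median log2 fold change was -0.0064 for the 74 subunits, the middle 50% between -0.10 and 0.05, and it was -0.0039 for all genes tested, the middle 50% between -0.19 and 0.18. The 95% interval of the fold change lay within 1.5-fold in either direction for 67 of the 74 subunits (90.5%), against 57.2% of all genes tested and 67.0% of genes that averaged 10 FPKM or more. Positive fold changes numbered 34 and negative 40. Each fold change is Mut minus WT on log2(FPKM + 1), a scale that understates the change of low genes. As everywhere in bulk RNA, fewer cells of a type and less RNA per cell cannot be told apart.

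**Figure D2:**
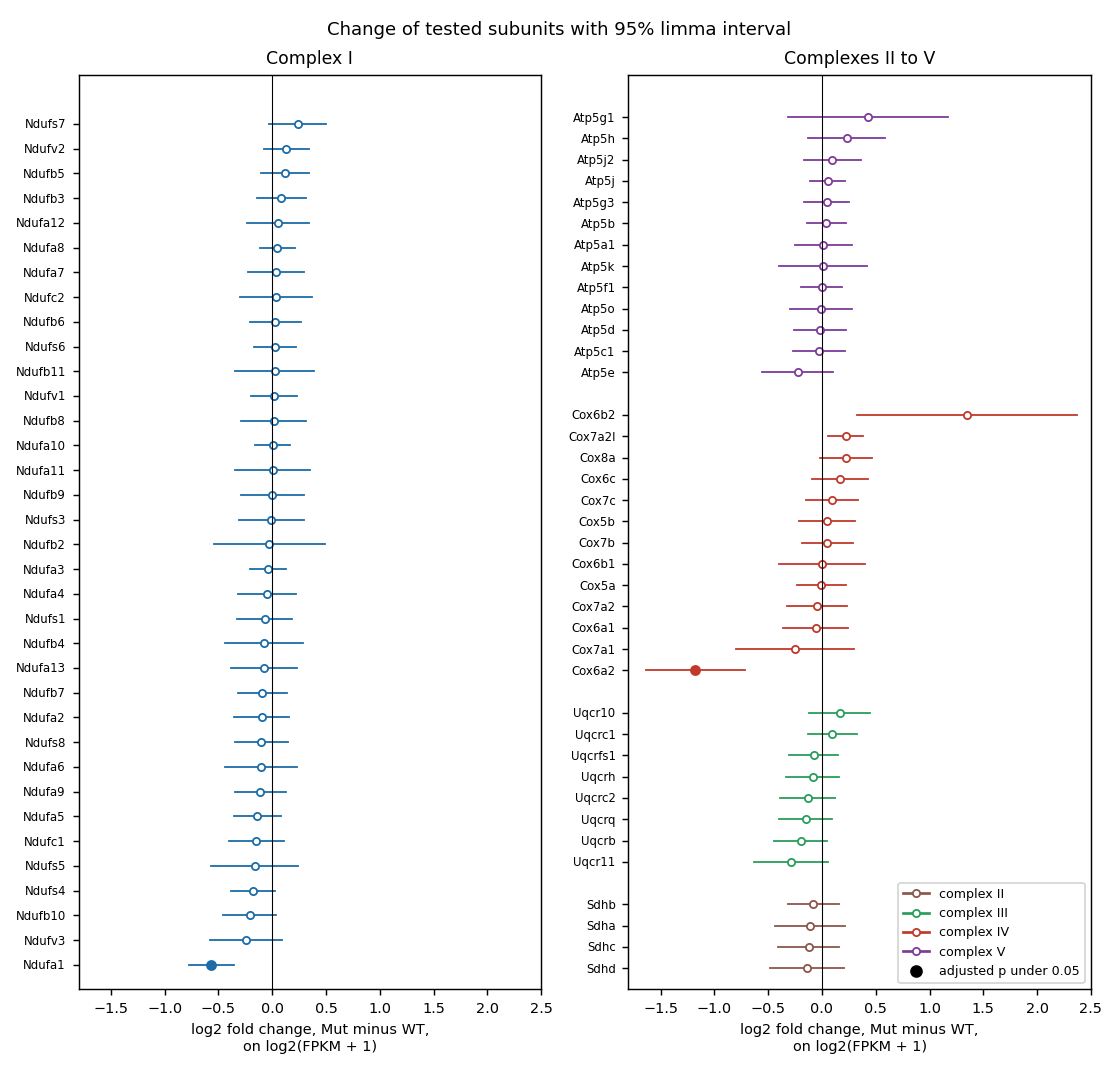
Log2 fold change (x axis, Mut minus WT on log2(FPKM + 1)) of the tested subunit genes, 1 of them not drawn, with 95% limma intervals, complex I on the left and complexes II to V on the right. Filled points passed at an adjusted p under 0.05, and only Ndufa1 and Cox6a2 did, both lower in Mut.

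Complex I is the entry point for electrons from NADH, and 1 of its 36 subunits changed. Ndufa1, an accessory subunit of the membrane arm that is needed for assembly of the complex, measured 69.9, 82.8 and 77.0 FPKM in Mut and 119, 109 and 113 FPKM in WT libraries. The groups were well apart, with the highest Mut value below the lowest WT value. The means were 76.6 ± 6.44 FPKM in Mut and 114 ± 5.32 FPKM in WT libraries, 32.6% lower in Mut (log2 fold change -0.56, SE 0.086, limma adjusted p = 0.026). Without Mut 1, Mut 2, WT 0, WT 1 or WT 2, Ndufa1 did not pass (limma adjusted p from 0.050 to 0.10), while its log2 fold change stayed between -0.62 and -0.50 over the 6 fits that each left out 1 library. With a covariate for the Y-linked level it was -0.98 (limma adjusted p = 0.155), in a fit that cannot separate that level from genotype.

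Ndufa1 lies at chrX:37187588-37191163 (mm10, minus strand), and its transcripts share no 50-base window with another gene. Of the 500 X-linked genes tested, 11 rose (2.2%) and 24 fell (4.8%) in Mut, against 3.48% and 2.59% of all genes tested, and their median log2 fold change was -0.09. The other 2 X-linked subunits did not pass. Ndufb11, also of the membrane arm of complex I, measured 41.5, 42.8 and 47.9 FPKM in Mut and 52.1, 35.5 and 43.8 FPKM in WT libraries. Cox7b, a small subunit of complex IV, measured 60.9, 69.6 and 64.6 FPKM in Mut and 68.2, 56.3 and 64.4 FPKM in WT libraries. For both genes the Mut values lay inside the WT range or crossed it, with log2 fold changes of 0.02 and 0.05 (limma adjusted p = 0.94 and 0.80).

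The catalytic core of complex I, which binds NADH and carries the iron-sulfur clusters, differed little. Ndufs7, the core subunit that bears the last iron-sulfur cluster before ubiquinone, measured 40.8, 45.6 and 51.2 FPKM in Mut and 41.9, 35.4 and 38.9 FPKM in WT libraries. Its groups overlapped through Mut 0 and WT 0 (log2 fold change 0.24, limma adjusted p = 0.25). Among the other core subunits, Ndufs1, Ndufs3, Ndufs8, Ndufv1 and Ndufv2 had log2 fold changes between -0.10 and 0.13, and none passed. Ndufv1, which holds the NADH site, averaged 37.3 ± 3.40 FPKM in Mut and 36.7 ± 1.85 FPKM in WT libraries.

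Ndufs4, an accessory subunit whose loss causes Leigh-like disease in mice, was the other complex I gene with separate groups, at 20.7, 24.5 and 24.4 FPKM in Mut and 26.7, 25.6 and 26.9 FPKM in WT libraries. The gap between the groups was small and the gene did not pass (log2 fold change -0.18, limma adjusted p = 0.24). Ndufb10, of the membrane arm, averaged 64.6 ± 6.91 FPKM in Mut and 74.6 ± 4.40 FPKM in WT libraries, and its groups overlapped (log2 fold change -0.21, limma adjusted p = 0.26). The most abundant genes with complex I names were Ndufa4, whose protein is now placed in complex IV, and Ndufa5. Ndufa4 averaged 214 ± 14.2 FPKM in Mut and 222 ± 24.8 FPKM in WT libraries, and Ndufa5 averaged 199.5 ± 14.1 in Mut and 219 ± 13.4 FPKM in WT. Neither passed (limma adjusted p = 0.81 and 0.40).

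Complex II, succinate dehydrogenase, is also an enzyme of the citric acid cycle. All 4 of its subunits had a negative fold change that did not pass, and 50.6% of all genes tested had a negative fold change. The fold change of Sdhd turned positive without Mut 0, that of Sdhb without WT 0, and those of Sdha and Sdhb with a Y-linked covariate. Sdhd, a membrane anchor, measured 72.6, 97.5 and 100.4 FPKM in Mut and 103, 91.8 and 101 FPKM in WT libraries. Only Mut 0 stood below the rest. Sdhb, the iron-sulfur subunit, averaged 68.2 ± 2.14 FPKM in Mut and 72.3 ± 8.32 FPKM in WT libraries. Sdhc, the other anchor, averaged 47.5 ± 5.52 in Mut and 51.6 ± 4.55 FPKM in WT. Sdha, the flavoprotein that oxidises succinate, measured 44.8, 40.0 and 44.0 FPKM in Mut and 38.3, 53.3 and 48.8 FPKM in WT libraries, with WT 0 the lowest of the 6. The log2 fold changes ran from -0.14 to -0.08, and the limma adjusted p from 0.55 to 0.65.

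Complex III passes electrons from ubiquinol to cytochrome c, and 6 of its 8 subunits had a negative fold change, against 50.6% of all genes tested. None of the 6 passed, and the fold change of Uqcrfs1 turned positive without Mut 0. Uqcr11, its smallest subunit, measured 117, 149.6 and 135 FPKM in Mut and 188, 143 and 159 FPKM in WT libraries. WT 0 was the highest and Mut 1 lay above WT 1, so the groups overlapped (log2 fold change -0.29, limma adjusted p = 0.27). Uqcr11 shares 10.9% of its 50-base windows with the processed pseudogene Gm16418. That copy averaged 144 ± 13.9 FPKM in Mut and 129 ± 10.8 FPKM in WT libraries. Uqcrb, a small subunit near the ubiquinone site, averaged 30.0 ± 2.84 FPKM in Mut and 34.5 ± 3.05 FPKM in WT libraries (limma adjusted p = 0.29). Uqcrq averaged 156 ± 5.08 in Mut and 174 ± 19.2 FPKM in WT. Uqcr10 was higher in Mut without passing, at 176 ± 9.81 FPKM in Mut and 158 ± 21.4 FPKM in WT libraries (limma adjusted p = 0.43).

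Uqcrh, the hinge protein beside cytochrome c1, averaged 166 ± 10.1 FPKM in Mut and 176 ± 17.6 FPKM in WT libraries. Its processed pseudogene Uqcrh-ps1, which the rule left out, measured 77.8, 111 and 97.6 FPKM in Mut and 122, 114 and 148 FPKM in WT libraries. The pseudogene's groups did not overlap, and it did not pass (log2 fold change -0.43, limma adjusted p = 0.18). The 2 core proteins and the Rieske protein were close to equal: Uqcrc1 averaged 52.9 ± 4.43 FPKM in Mut and 49.3 ± 3.60 FPKM in WT libraries, Uqcrc2 65.1 ± 7.92 in Mut and 71.3 ± 3.35 FPKM in WT, and Uqcrfs1, the Rieske iron-sulfur protein, 38.9 ± 4.14 in Mut and 41.0 ± 1.23 FPKM in WT.

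Complex IV, cytochrome c oxidase, has several subunits that exist as tissue isoforms, and the largest differences of the set were in such isoforms. Cox6a2, the isoform of heart and skeletal muscle, measured 1.18, 1.28 and 1.27 FPKM in Mut and 5.17, 4.41 and 2.90 FPKM in WT libraries. All Mut values were alike and below all WT values. The means were 1.24 ± 0.050 FPKM in Mut and 4.16 ± 1.16 FPKM in WT libraries (log2 fold change -1.18, SE 0.186, limma adjusted p = 0.029). Cox6a2 passed without WT 2 (limma adjusted p = 0.026) and did not pass without WT 0, WT 1, Mut 0, Mut 1 or Mut 2 (0.060 to 0.10), nor when genes of low level were not filtered out (0.058). Its mean level is under 3 FPKM, and Cox6a1, the common isoform, made up 99.5 ± 0.057% of Cox6a FPKM in Mut and 98.5 ± 0.401% in WT libraries.

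Of 8 tested skeletal muscle markers 1 fell, as Cox6a2 did, or 12.5%, against 2.59% of all genes tested. Of the 8, 7 had negative fold changes, and the median log2 fold change was -0.58. At an unadjusted limma p under 0.05 there were 2 lower and 0 higher, against 24.7% of all genes tested in either direction. The 12 markers in the table summed to 59.7 to 89.3 FPKM in Mut and 161 to 185 FPKM in WT libraries, most of it from the marker that fell. This was Tnnt3, a fast muscle troponin, at 41.6, 63.5 and 50.3 FPKM in Mut and 162, 137 and 123 FPKM in WT libraries. Without Tnnt3 the other 11 summed to 23.2, 25.7 and 9.43 FPKM in Mut and 23.4, 23.7 and 46.8 FPKM in WT libraries, and these values overlapped. None of the 12 was at 0 throughout, and Acta1, skeletal actin, measured 5.24, 4.90 and 0.747 FPKM in Mut and 4.23, 4.92 and 11.4 FPKM in WT libraries. The part of muscle RNA in the Cox6a2 difference was not tested. Cox7a1, another muscle isoform, measured 1.04, 1.12 and 1.86 FPKM in Mut and 1.58, 1.34 and 2.46 FPKM in WT libraries, with overlapping groups (limma adjusted p = 0.52). Cox8b, also of muscle and of brown fat, was not tested, with 0.838, 0.192 and 0 FPKM in Mut and 0, 0 and 0.234 FPKM in WT libraries, where a value of 0 can also be a failed estimate. The 6 brown fat markers summed to 22.1 to 27.8 FPKM in Mut and 13.7 to 15.0 FPKM in WT libraries. Both tested ones, Cidea and Dio2, rose in Mut, as did 3.48% of all genes tested, and the other markers were not tested. Ucp1, which defines the type, was listed at 0 in all Mut libraries but not in all WT libraries.

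Cox6b2, the testis isoform of Cox6b, stood the other way, with 6.01, 3.57 and 7.52 FPKM in Mut and 1.77, 2.98 and 0.487 FPKM in WT libraries. The groups did not overlap, though Mut 1 and WT 1 were close. It did not pass (log2 fold change 1.35, SE 0.415, limma adjusted p = 0.12). Cox6b1, the common isoform and the second most abundant member, measured 297, 361 and 357 FPKM in Mut and 404, 279 and 340.3 FPKM in WT libraries, so the WT values lay on both sides of the Mut values. Cox6b2 was 1.68 ± 0.604% of Cox6b FPKM in Mut and 0.546 ± 0.468% in WT libraries. Cox7b2, a testis isoform of Cox7b, was below 1 FPKM in all libraries and was not tested.

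Cox7a2l, which joins complexes III and IV into supercomplexes, measured 44.8, 48.7 and 46.3 FPKM in Mut and 42.0, 38.4 and 39.2 FPKM in WT libraries. All Mut values were above all WT values, by a small margin (log2 fold change 0.22, SE 0.067, limma adjusted p = 0.12), and the gene passed in the fit that weights libraries by quality (adjusted p = 0.048). It shares 17.8% of its 50-base windows with the processed pseudogene Gm6969, which averaged 25.3 ± 2.52 FPKM in Mut and 18.2 ± 2.54 FPKM in WT libraries. Within the Cox7a family, Cox7a2l was 28.1 ± 1.16% of FPKM in Mut and 24.4 ± 2.01% in WT libraries, and Cox7a2, the common liver-type isoform, 71.1 ± 1.05% in Mut and 74.5 ± 1.90% in WT. Cox8a, the common isoform of the smallest subunit, measured 182, 187 and 208 FPKM in Mut and 179, 150.5 and 165 FPKM in WT libraries. Its groups also did not overlap, with Mut 0 and WT 0 nearly equal (log2 fold change 0.22, limma adjusted p = 0.23). Cox6a1 averaged 270.3 ± 26.0 FPKM in Mut and 282 ± 31.9 FPKM in WT libraries.

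**Figure D3:**
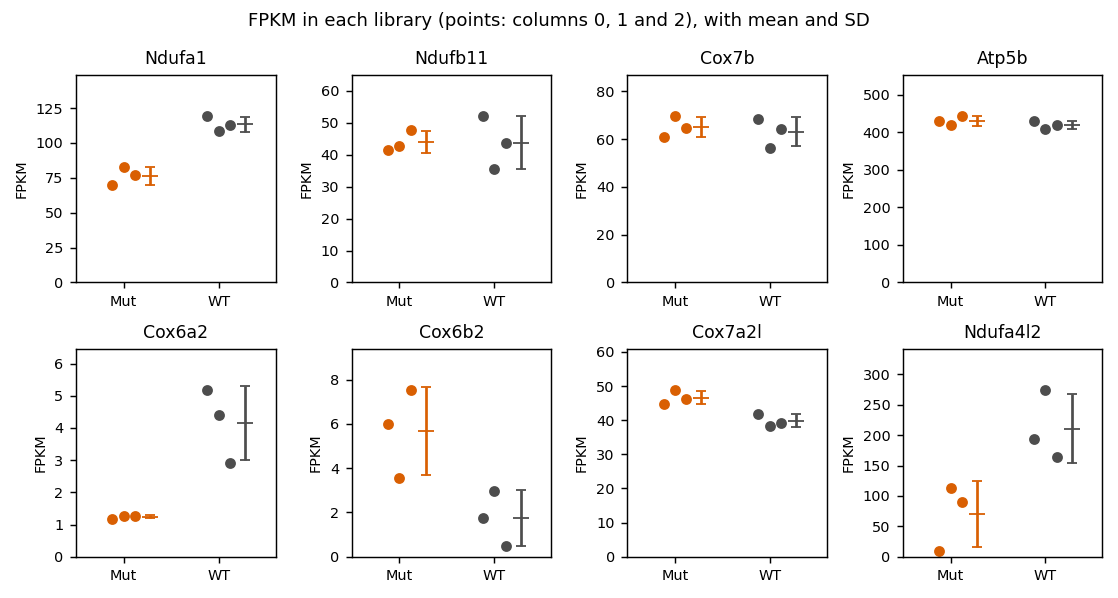
FPKM in each library for 8 genes, Mut (orange, left) and WT (grey, right), with the mean and SD of 3 libraries beside the points. Ndufa1 and Cox6a2 were lower in Mut and passed, Cox6b2, Cox7a2l and Ndufa4l2 had separate groups without passing, and Ndufb11, Cox7b and Atp5b overlapped.

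Complex V, the ATP synthase, gave no call among its 13 tested subunits, and its median log2 fold change was 0.01. The catalytic subunits were level: Atp5b averaged 430.5 ± 12.3 FPKM in Mut and 419 ± 10.7 FPKM in WT libraries, and Atp5a1, the alpha subunit, 336 ± 33.3 in Mut and 332 ± 24.3 FPKM in WT. Atp5e, the epsilon subunit of the central stalk, measured 139, 136 and 141 FPKM in Mut and 198.5, 146 and 147 FPKM in WT libraries. The groups did not overlap, WT 0 stood far above the rest, and the gene did not pass (log2 fold change -0.22, limma adjusted p = 0.36). Atp5h, of the peripheral stalk, averaged 68.1 ± 4.0 FPKM in Mut and 58.5 ± 10.5 FPKM in WT libraries (limma adjusted p = 0.38), and Atp5j2, of the membrane part, 74.7 ± 1.01 in Mut and 70.2 ± 9.44 FPKM in WT (0.62).

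The proton-carrying ring of complex V is built from one mature protein that 3 genes encode, and their listed levels were far apart. Atp5g3 averaged 179 ± 14.9 FPKM in Mut and 173 ± 5.43 FPKM in WT libraries, which was 96.5 ± 1.42% in Mut and 97.6 ± 0.651% in WT of the FPKM of the family. Atp5g1 measured 8.16, 3.60 and 6.63 FPKM in Mut and 5.46, 3.03 and 4.05 FPKM in WT libraries, with overlapping groups. Atp5g2 was listed below 1 FPKM in every library, as was Atp5l, subunit g of the membrane part. Neither was tested.

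Several subunit genes have copies elsewhere in the genome that are near-identical in part. The stretches below are shown because most short reads from within these stretches, though not from the whole genes, match both genes alike. For a member gene it is the first 90 bases of the longest open reading frame of a transcript in GENCODE release M21 (mm10). For the processed pseudogene that shares most windows with the member, it is the best-matching 90 bases anywhere in its transcript, without gaps. The mismatches are thus the fewest that the search could find, and a capital marks a base that differs.
Atp5g1, within chr11:96068852-96075670, minus strand: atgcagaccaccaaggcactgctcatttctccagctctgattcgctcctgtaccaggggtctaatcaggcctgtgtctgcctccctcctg
Gm10039, within chr11:100361716-100362126, minus strand: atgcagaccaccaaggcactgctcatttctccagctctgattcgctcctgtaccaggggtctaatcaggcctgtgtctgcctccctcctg
Ndufs5, within chr4:123712710-123718202, minus strand: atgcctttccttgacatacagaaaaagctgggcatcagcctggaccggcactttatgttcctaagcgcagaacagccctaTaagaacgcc
BC002163, within chr16:42955631-42955949, plus strand: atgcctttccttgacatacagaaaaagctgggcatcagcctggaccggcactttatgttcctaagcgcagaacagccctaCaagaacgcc

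Over these 90 bases Atp5g1 and Gm10039 had 0 mismatches, and Ndufs5 and BC002163 had 1. Gm10039 averaged 111 ± 3.81 FPKM in Mut and 103 ± 12.7 FPKM in WT libraries, far above Atp5g1 at 6.13 ± 2.32 in Mut and 4.18 ± 1.22 FPKM in WT. BC002163 averaged 52.3 ± 8.51 FPKM in Mut and 66.3 ± 8.76 FPKM in WT libraries, above Ndufs5, an accessory subunit of complex I, at 9.17 ± 1.16 in Mut and 10.5 ± 2.10 FPKM in WT. The levels of these 2 subunit genes and of others with copies, and their fold changes, are uncertain, since shared reads could be counted to either gene.

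Of all 50-base windows of a gene's transcripts, the read length of these libraries, the share that also occurs in another gene's transcripts was 84.8% for Atp5l, spread over 14 genes, 38.3% for Atp5g2, 47.6% for Atp5o and 43.4% for Uqcrb. This share was 11.1% for Atp5g1, spread over 366 genes, and 21.7% for Ndufs5. No window was shared for 33 members, which had a median level of 70.2 FPKM. The 22 members with up to 10% shared had a median of 68.2 FPKM, and the 23 with more than 10% a median of 43.9 FPKM. The other 2 untested genes, Cox8b and Cox7b2, shared no window. Some of the sharing is with overlapping neighbours on the same or the other strand, such as Wdr77 for Atp5f1, and how the deposited values treated shared reads is not stated in the sources used here.

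**Figure D4:**
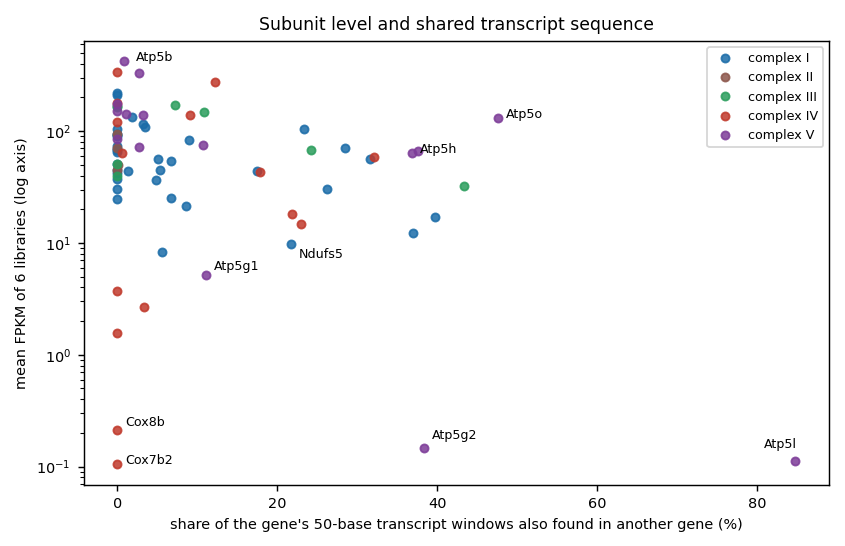
Mean FPKM over 6 libraries (y axis, log) against the share of a gene's 50-base transcript windows that also occur in another gene (x axis, %), 1 point per subunit gene, coloured by complex. Atp5l and Atp5g2 combine a high share with a level below 1 FPKM, while Cox8b and Cox7b2 are as low with no shared window, and Atp5o is high with a share of 47.6%.

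Single libraries differed more than the genotypes did. WT 0, the only library whose title carries a different date, was the highest of the 6 for 36 of the 74 subunits, with a median deviation from the 6-library mean of 0.12 on the log2(FPKM + 1) scale. Mut 2 was the highest for 20. Mut 0 was the lowest for 31 subunits and WT 1 for 28, with median deviations of -0.09 and -0.10. The median deviations of all genes tested lay between -0.02 and 0.01. Without WT 0 the remaining 5 libraries share a title date, and the median log2 fold change of the subunits was then 0.04, with 0 passing in limma. All 5 complexes lay above the mean in WT 0 and below it in Mut 0 and WT 1. The members together made up 1.03, 1.08 and 1.19% of FPKM in Mut and 1.15, 1.07 and 1.16% in WT libraries.

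**Figure D5:**
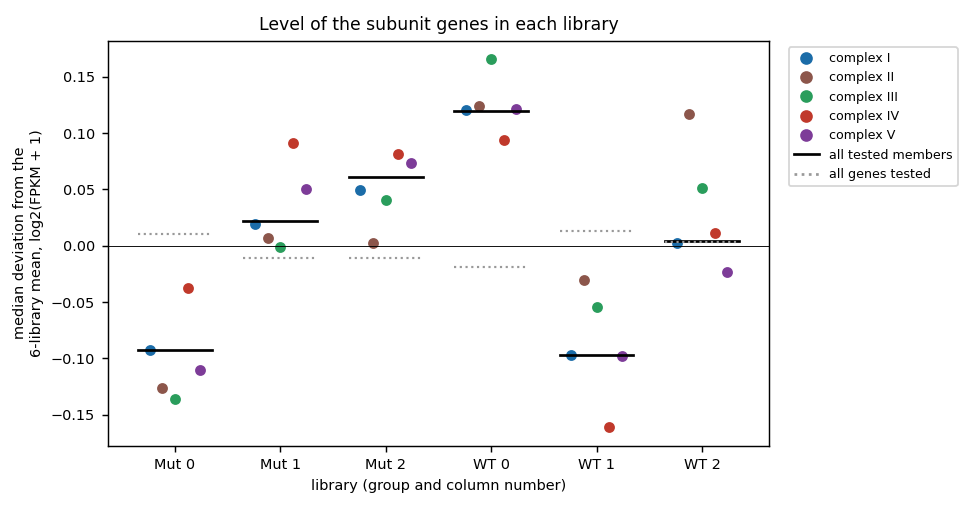
Median deviation of the tested subunits of each complex from the 6-library mean (y axis, log2(FPKM + 1)) in each library, with the Mut libraries left of the WT libraries, black bars for all tested members and dotted bars for all genes tested. WT 0 is highest and Mut 0 and WT 1 lowest, and each genotype spans both sides of 0.

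Subunits and carriers that the rule does not reach gave no call among 12 tested of 15. The 2 with the smallest p were Etfa and Etfb, the electron transfer flavoprotein that feeds ubiquinone from fatty acid oxidation. Etfa measured 16.1, 15.4 and 17.9 FPKM in Mut and 21.1, 24.5 and 21.6 FPKM in WT libraries, and Etfb 29.6, 29.4 and 32.6 FPKM in Mut and 35.9, 45.8 and 39.5 FPKM in WT. Both had separate groups, lower in Mut, without passing (log2 fold changes -0.42 and -0.39, limma adjusted p = 0.054 and 0.095). Cyc1, the cytochrome of complex III, averaged 42.9 ± 3.13 FPKM in Mut and 40.4 ± 0.185 FPKM in WT libraries. Of the subunits encoded by mitochondrial DNA, mt-Nd1, mt-Nd2 and mt-Nd6 were listed below 1 FPKM in all libraries, and the others were not analysed here. Whether these low values come from how the deposited values were made was not tested, so they are not read as levels in the cells.

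The isoforms known to be induced by low oxygen varied widely between libraries. Ndufa4l2, a paralog of Ndufa4, measured 8.73, 113 and 90.4 FPKM in Mut and 194, 274 and 164 FPKM in WT libraries. The groups did not overlap, but Mut 0 stood far below Mut 1 and Mut 2, and the gene did not pass (log2 fold change -2.15, SE 0.958, limma adjusted p = 0.23). Its share of the summed FPKM of Ndufa4 and Ndufa4l2 was 4.21, 33.2 and 29.5% in Mut and 44.3, 58.4 and 41.8% in WT libraries, while Ndufa4 itself was level. Cox4i2, the inducible isoform of Cox4, measured 32.8, 46.5 and 34.5 FPKM in Mut and 47.4, 63.1 and 40.7 FPKM in WT libraries. These groups overlapped through Mut 1 and WT 2 (log2 fold change -0.40, limma adjusted p = 0.30). Cox4i1, the common isoform, measured 270.1, 309.8 and 296 FPKM in Mut and 279.8, 250.2 and 256 FPKM in WT libraries (log2 fold change 0.16, limma adjusted p = 0.34), and Cox4i2 was 11.4 ± 1.43% of Cox4i FPKM in Mut and 16.1 ± 3.51% in WT libraries.

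Among 54 tested factors that assemble the complexes, 2 rose and 2 fell, which is 7.41% called, against 6.07% of all genes tested. Sco2, which delivers copper to complex IV, measured 12.6, 9.98 and 13.1 FPKM in Mut and 6.79, 6.0 and 5.86 FPKM in WT libraries, with groups far apart (log2 fold change 0.83, SE 0.117, limma adjusted p = 0.022). Atpaf2, a chaperone for the F1 part of complex V, also rose, at 13.2 ± 0.598 FPKM in Mut and 9.65 ± 0.085 FPKM in WT libraries (log2 fold change 0.41, limma adjusted p = 0.024). Timmdc1 and Foxred1, assembly factors of complex I, fell. Timmdc1 averaged 10.9 ± 0.921 FPKM in Mut and 16.3 ± 0.782 FPKM in WT libraries (log2 fold change -0.54, limma adjusted p = 0.025), and Foxred1 11.9 ± 0.183 in Mut and 14.5 ± 0.227 FPKM in WT (log2 fold change -0.26, limma adjusted p = 0.049). The 54 factors had a median log2 fold change of -0.0046, with 50 members not past the test.

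Of 20 tested regulators of mitochondrial gene expression 1 fell and none rose, or 5.0% called, against 6.07% of all genes tested. At an unadjusted limma p under 0.05 there were 3 higher and 1 lower, 14 of the 20 fold changes were positive, and the median log2 fold change was 0.11. Tfb1m, which methylates mitochondrial ribosomal RNA, measured 3.85, 3.86 and 3.82 FPKM in Mut and 6.57, 5.80 and 5.47 FPKM in WT libraries, without overlap (log2 fold change -0.52, limma adjusted p = 0.031). Tfam, which packages mitochondrial DNA, averaged 30.7 ± 2.17 FPKM in Mut and 28.4 ± 2.18 FPKM in WT libraries. Ppargc1a, a coactivator of mitochondrial biogenesis, was under the minimum mean and not tested, and is named after its values were seen, with 1.77, 1.07 and 1.51 FPKM in Mut and 0.422, 0.409 and 0.417 FPKM in WT libraries. Of the 5 calls in assembly factors and regulators, 3 were kept without Mut 0, 1 without Mut 1 and 0 without Mut 2, WT 0, WT 1 or WT 2.

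The neighbouring mitochondrial lists gave no call, while of all genes tested 6.07% were called and 24.7% had an unadjusted limma p under 0.05. None of 12 genes of coenzyme Q synthesis passed in limma (2 lower and 0 higher at an unadjusted p under 0.05), none of 18 genes of the citric acid cycle (2 higher and 1 lower) and none of 74 mitochondrial ribosomal proteins (3 higher and 3 lower). Their median log2 fold changes were -0.06, 0.02 and 0.01. Suclg1, a subunit of succinyl-CoA ligase, had the smallest p of the citric acid cycle, with 37.5 ± 2.98 FPKM in Mut and 46.2 ± 0.798 FPKM in WT libraries (limma adjusted p = 0.083). Among 66 cytosolic ribosomal proteins 2 rose and none fell, with a median of 0.24 and 63 positive fold changes. That is 3.03% higher, against 3.48% of all genes tested. At an unadjusted limma p under 0.05 there were 24 higher and 0 lower. Groups did not overlap for 25, all above WT, against 16.3% of all genes tested. The difference between the cytosolic list and the subunits was not tested.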

How the data were processed

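RNA was measured in 3 Mut and 3 WT libraries, stranded and depleted of ribosomal RNA, with single reads of 50 bases, per the labels' protocols. STAR, Cufflinks and Cuffdiff with mm10 are named in the submitters' processing notes; no version of any is given in the sources used here. The deposited table holds FPKM values as the authors made them. Columns 0 and 1 of each group were matched to a sample and column 2 to its group only, since the labels number the last library 3. Coordinates came from GENCODE release M21, which 99.4% of identifiers matched.

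A genotype coefficient was estimated by limma 3.58.1 (R 4.3.3; eBayes, trend, two-sided) on log2(FPKM + 1) for the 14012 genes that averaged 1 FPKM or more, with Benjamini-Hochberg adjustment over all of them and a threshold of 0.05. The script was tested on simulated data. An exact permutation test of 3 against 3 cannot go below p = 0.1, so none is given. Sequences came from RefSeq (GRCm38.p6) and GENCODE transcripts.

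The members and lists were chosen with earlier results of these data known. Named are, per complex, the 4 smallest p and the 2 highest means, the core subunits and isoform families, up to 2 of each kind from other lists (some are left out), and Cops5. The result for 1 core subunit is not reported here. The other 2 X-linked subunits and genes that share sequence were named after their values were seen. Alternatives were pseudocounts, filters, scalings, library weights, a Y-linked covariate, a replicate block and leaving out each library.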

Additional observations from a re-analysis of the deposited data

How the results depend on the processing

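Depth is unknown, and with 3 libraries a group many calls did not hold when 1 library was left out. The number of subunits that passed, 2, was the same with pseudocounts of 0.1 and 0.5, median-of-ratios scaling and quantile normalization, and 3 with library weights. It was 1 with no filter on low values, 1 with a minimum mean of 5 FPKM, 0 with a Y-linked covariate and 0 to 1 when 1 library was left out. Their median log2 fold change, -0.01, was -0.30 with the Y-linked covariate, -0.08 with quantile normalization (-0.02 for all genes) and 0.03 with library weights. The 5 calls among other mitochondrial genes became 3 with no filter, 10 with library weights, 0 with the Y-linked covariate and 0 to 3 when 1 library was left out. The log2 fold change of Cops5 was -1.29 with the Y-linked covariate and did not pass (limma adjusted p = 0.084). The Y-linked sum was 14.6 to 82.8 FPKM in Mut and 0.028 to 0.639 FPKM in WT libraries. The covariate therefore nearly repeats genotype. The fit with it cannot separate the 2, and no conclusion is drawn from its lost calls or changed signs. Over all genes, 850 calls became 461 with no filter, 1488 with library weights, 26 with the Y-linked covariate and 174 to 666 when 1 library was left out. The causes were not tested, and the last of these fits also had 1 library fewer. Same-numbered libraries did not deviate together (r from -0.04 to -0.02, against -0.01 to 0.04 for other pairs of a Mut and a WT library). Correlations from 3 libraries a group cannot settle whether the numbers pair libraries. With a replicate block 0 subunits, 0 other mitochondrial genes and 60 genes in all passed. None of the 20 named genes that passed changed sign under any alternative. Of the other named genes 33 did, 20 of them subunits, in each case without passing. With the Y-linked covariate the log2 fold change turned to -0.82 for 2010107E04Rik, -0.50 for Atp5a1, -0.36 for Atp5g3, -0.13 for Atp5h, -0.053 for Atp5j2, -2.34 for Cdh5, 0.79 for Col9a2, -0.20 for Cox4i1, 0.059 for Cox6a1, -0.32 for Cox7b, -0.047 for Cox8a, -1.995 for Emcn, -0.19 for Idh3b, 0.50 for Lect1, -0.031 for Mrpl19, -0.28 for Ndufs7, -0.16 for Ndufv1, -0.16 for Ndufv2, -2.98 for Pecam1, 0.12 for Sdha, 0.091 for Sdhb, -0.088 for Tfam and 0.033 for Uqcc2. With quantile normalization the log2 fold change turned to -0.080 for Atp5a1, -0.11 for Atp5b, -0.044 for Atp5g3, -0.0070 for Cox7b, -0.00056 for Mdh2 and -0.018 for Ndufv1. With library weights the log2 fold change turned to -0.022 for Coq10b, 0.076 for Cox6b1, -0.0059 for Mdh2 and 0.050 for Ndufs3. With median-of-ratios scaling the log2 fold change turned to 0.0040 for Cox6b1. Leaving out 1 library turned the sign of 1 to 7 genes, and the log2 fold changes then ran from -0.046 to 0.095 for Atp5a1, from -0.0058 to 0.11 for Atp5g3, from -0.0065 to 0.19 for Atp5j2, from -0.032 to 0.11 for Coq10b, from -0.15 to 0.022 for Cox6a1, from -0.14 to 0.13 for Cox6b1, from -0.16 to 0.036 for Cox7a2, from -0.029 to 0.11 for Cox7b, from -0.051 to 0.12 for Mdh2, from -0.14 to 0.017 for Ndufa4, from -0.14 to 0.014 for Ndufs1, from -0.098 to 0.12 for Ndufs3, from -0.053 to 0.061 for Ndufv1, from -0.13 to 0.012 for Sdhb, from -0.22 to 0.0079 for Sdhd and from -0.13 to 0.012 for Uqcrfs1.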
